A study of Mus musculus with 6 samples.

Results

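The genes described here encode the proteins that hydroxylate, fold and crosslink collagen. They are the prolyl 4-hydroxylase alpha subunits P4ha1 and P4ha2, the lysyl hydroxylases Plod1, Plod2 and Plod3, the chaperone Serpinh1 (HSP47) and the lysyl oxidases Lox, Loxl1, Loxl2 and Loxl3. They were taken by gene symbol from a table of exon counts. All 10 symbols were found among the 24940 genes of the table, each with 1 genomic copy, and all 10 passed the filter on low counts that left 11286 genes to test.

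RNA came from primary hepatic stellate cells of wild-type female C57BL/6JBomTac mice, liver pericytes that store vitamin A and can turn into matrix-producing myofibroblasts. In the OCA+VIP group, cells on day 2 of culture received 10 µM obeticholic acid (OCA), a bile acid derivative that activates the nuclear receptor FXR, and 3 h later the cAMP-raising neuropeptide vasoactive intestinal peptide (VIP) at 500 nM, for 3 h more. The DMSO+VIP group received the vehicle DMSO (1:1000) in place of OCA and the same VIP. Each group had 3 libraries of polyadenylated RNA, VIP was given to all 6, and the comparison therefore asks what OCA changed in cells that were then exposed to VIP. Whether the libraries of a group are separate animals or cultures is not stated. The p-values therefore reflect only how far these samples spread, and that spread may be technical. Stellate cells activate in culture, and protein, enzyme activity and crosslinks were not measured.

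Collagen chains are modified in the endoplasmic reticulum before they are secreted. Prolyl hydroxylation makes the collagen helix stable at body temperature, lysyl hydroxylation prepares sites for sugars and crosslinks, and HSP47 holds the folded procollagen until it leaves the compartment. Outside the cell, lysyl oxidases, which need copper, oxidise lysines and hydroxylysines so that neighbouring chains link to each other. In the fibrotic liver, stellate cells are the main source of collagen.

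With OCA before VIP, RNA of the chaperone Serpinh1 was 1.64-fold lower and RNA of the crosslinking enzyme Lox was 1.93-fold lower. These 2 of the 10 genes fell and 0 rose (edgeR, quasi-likelihood test, p adjusted by Benjamini-Hochberg over all tested genes, threshold 0.05). Among all tested genes 6.04% fell and 5.72% rose. The hydroxylases of proline and lysine did not pass the test, in either direction. The median log2 fold change of the 10 genes was -0.43, with 3 above and 7 below 0, beside a median of 0.0010 over all tested genes. In the groups' values before any test, Serpinh1, Loxl2 and Loxl3 were lower and P4ha1 was higher in all 3 OCA+VIP libraries than in any DMSO+VIP library, where 13.9% of tested genes were lower and 16.8% higher by that criterion.

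The deposited counts summed to 4.53e+06 to 9.95e+06 per OCA+VIP library, highest in library 2, and 2.84e+06 to 4.57e+06 per DMSO+VIP library. Many counts from above 0 to 30 lay within 0.5 of a multiple of 3. The share was 84.4%, 65.4% and 84.6% in OCA+VIP libraries 1 to 3 and 82.9% to 87.5% in DMSO+VIP. Counts move in steps of 0.5, so evenly spread counts would also often lie there. The reason for the pattern is not stated, and low counts may hold fewer independent fragments than their size. A step of 6 counts was assumed for 1 alternative fit, which divided the counts by 6. Of the 10 stellate cell markers, 10 were tested; Ecm1, Colec11 and Dcn rose and Des fell. Their summed level was 928 to 1045 CPM (the usual per-million scaling of counts to the column total) in OCA+VIP and 751 to 994 CPM in DMSO+VIP. Of the 10 hepatocyte markers, 8 of 9 tested rose and Ass1 fell, and their sum was 287 to 446 CPM in OCA+VIP and 175 to 191 CPM in DMSO+VIP. Of 8 portal fibroblast and mesothelial markers, Fbln2 was the 1 tested and fell, the list summed to 11.8 to 15.6 CPM in OCA+VIP and 34.2 to 59.8 CPM in DMSO+VIP, and Thy1, Msln and Upk3b were at 0 in all libraries. Endothelial markers summed to 7.39 to 12.2 CPM in OCA+VIP and 0 to 6.67 CPM in DMSO+VIP, macrophage markers to 31.0 to 42.5 CPM in OCA+VIP and 15.3 to 40.7 CPM in DMSO+VIP, and cholangiocyte markers to 14.7 to 19.8 CPM in OCA+VIP and 6.16 to 14.9 CPM in DMSO+VIP. None of the 2 tested markers of each of these 3 lists passed the test, and Lyve1, Ptprc and Krt7 were at 0. The part of these differences in the values below was not tested. In such bulk RNA, fewer cells of a type and less RNA per cell cannot be told apart.

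Per kilobase of exon, the scale on which genes can be compared, the 10 genes spanned a wide range. Serpinh1 had 344 ± 33.4 CPM per kb in OCA+VIP and 560 ± 34.4 CPM per kb in DMSO+VIP (SD, n = 3 each), rank 99 among the tested genes in OCA+VIP and rank 44 in DMSO+VIP. P4ha1 followed with 108 ± 7.31 CPM per kb in OCA+VIP and 87.9 ± 3.64 in DMSO+VIP. Plod1, Plod2 and Plod3 lay close together, at 37.6 to 42.1 CPM per kb in OCA+VIP and 33.3 to 40.2 in DMSO+VIP, and their order differed between the groups by less than the spread between libraries. P4ha2 came next with 18.5 ± 4.27 CPM per kb in OCA+VIP and 24.5 ± 1.59 in DMSO+VIP. The lysyl oxidases were lowest: Lox had 6.08 ± 2.08 CPM per kb in OCA+VIP and 11.6 ± 3.42 in DMSO+VIP. Loxl1, Loxl2 and Loxl3 had 3.22 to 3.97 CPM per kb in OCA+VIP and 4.71 to 6.68 in DMSO+VIP, and neighbours in the order of all 4 overlapped in both groups.

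**Figure D1:**
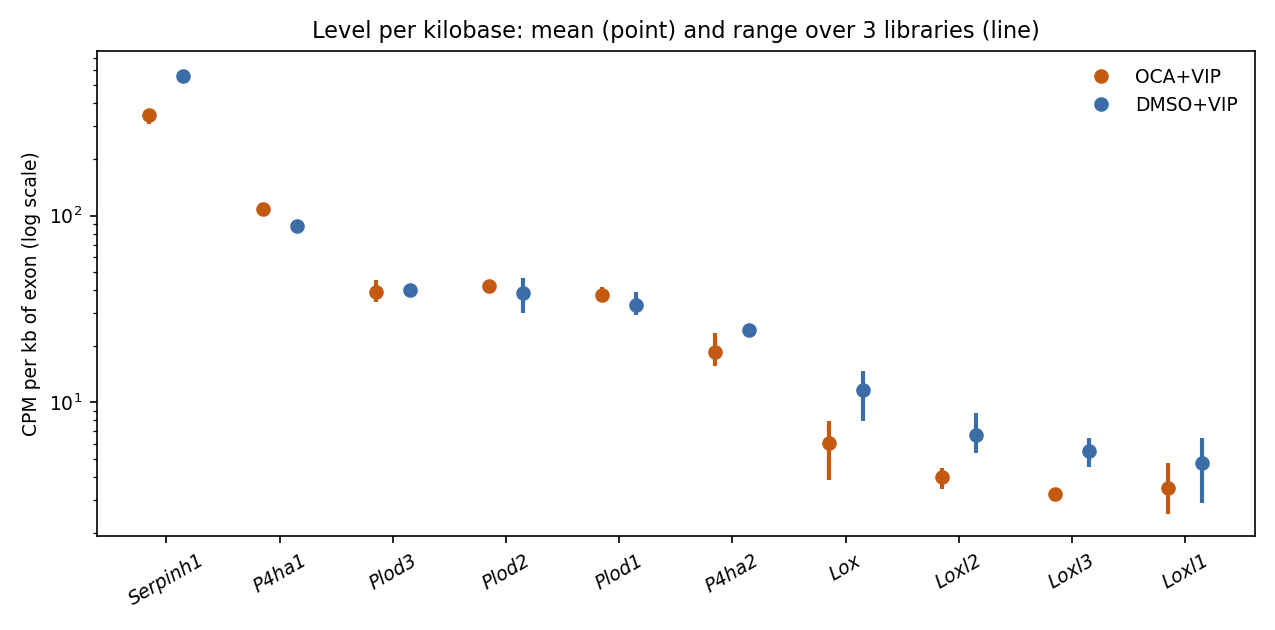
Level of each gene in CPM per kilobase of exon (log axis), as the mean (point) and the range (line) of 3 libraries in OCA+VIP and DMSO+VIP, ordered by the DMSO+VIP mean. Serpinh1 lies at 344 CPM per kb in OCA+VIP and 560 CPM per kb in DMSO+VIP, far above the lysyl oxidases, whose means are 3.22 to 6.08 CPM per kb in OCA+VIP and 4.71 to 11.6 CPM per kb in DMSO+VIP.

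P4ha1 and P4ha2 encode alternative catalytic subunits of collagen prolyl 4-hydroxylase, which pairs them with the beta subunit P4hb. P4ha1 (chromosome 10, 59323296 to 59373304, mm10) had 452, 402 and 454 CPM in OCA+VIP libraries 1 to 3, against 340, 352 and 369 CPM in DMSO+VIP libraries 1 to 3. The groups did not overlap, and the lowest OCA+VIP value, in library 2, was above the highest DMSO+VIP value. Its log2 fold change was 0.29 (SE 0.12, 95% interval 0.033 to 0.54), which did not pass the test over all genes (edgeR adjusted p = 0.14). It passed in 1 of 17 alternatives, without OCA+VIP library 2 (log2 fold change 0.38, edgeR adjusted p = 0.011). Over the fits that leave out 1 library, its edgeR adjusted p was 0.011 to 0.35. P4ha2 (chromosome 11, 54100924 to 54131667) had 35.5, 53.0 and 37.1 CPM in OCA+VIP, against 56.7, 51.4 and 58.3 CPM in DMSO+VIP. Here OCA+VIP library 2 lay among the DMSO+VIP values and the other two lay below them. The log2 fold change of -0.42 had an SE of 0.19 and a 95% interval of -0.81 to -0.035 (edgeR adjusted p = 0.15).

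The values of P4ha1 and P4ha2 thus lay on opposite sides of 0. P4ha1 held 87.7%, 81.0% and 87.3% of their summed level per kb in OCA+VIP, against 77.1%, 79.3% and 78.1% in DMSO+VIP. The ratio of P4ha1 to P4ha2 per kb was 7.14, 4.26 and 6.86 in OCA+VIP and 3.37, 3.84 and 3.56 in DMSO+VIP. The groups did not overlap in this ratio, although OCA+VIP library 2 was close to DMSO+VIP library 2. This description carries no test, and the third isoenzyme, P4ha3, had 0 counts in the OCA+VIP libraries and 6 counts in the DMSO+VIP libraries. The shared beta subunit P4hb, protein disulfide isomerase, had 762, 643 and 703 CPM in OCA+VIP and 598, 611 and 603 CPM in DMSO+VIP. Its log2 fold change of 0.21 (SE 0.13) did not pass the test (edgeR adjusted p = 0.32). P4hb passed only without OCA+VIP library 2 (edgeR adjusted p = 0.034), as P4ha1 did.

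Promoter sequence of P4ha1 and P4ha2 is shown because their RNA lay on opposite sides of 0, and that of Serpinh1 because its RNA fell. RefSeq (GRCm38.p6, the build of mm10) gave a promoter at the counted start for 5 of the 10 genes, namely these and Plod1 and Plod3. The 250 bases before the start are printed 5′ to 3′ on the strand of the gene. Capitals mark ACGTG or GCGTG on either strand, the core letters of the element that binds the hypoxia-inducible factor HIF, since P4ha1 and P4ha2 are known HIF targets. The intervals are chr10:59323046-59323295 (plus strand), chr11:54100674-54100923 (plus strand) and chr7:99353240-99353489 (minus strand).
P4ha1: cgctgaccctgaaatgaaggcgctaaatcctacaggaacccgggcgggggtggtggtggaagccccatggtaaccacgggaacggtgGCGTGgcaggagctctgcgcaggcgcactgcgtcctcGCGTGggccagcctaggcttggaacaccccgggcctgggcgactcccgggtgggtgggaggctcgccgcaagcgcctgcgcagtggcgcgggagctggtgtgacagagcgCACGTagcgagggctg
P4ha2: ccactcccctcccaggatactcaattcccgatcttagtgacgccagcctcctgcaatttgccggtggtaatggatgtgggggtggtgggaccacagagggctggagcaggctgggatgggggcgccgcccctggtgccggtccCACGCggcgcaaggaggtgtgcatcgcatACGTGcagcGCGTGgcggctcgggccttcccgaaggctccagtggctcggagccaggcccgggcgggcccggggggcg
Serpinh1: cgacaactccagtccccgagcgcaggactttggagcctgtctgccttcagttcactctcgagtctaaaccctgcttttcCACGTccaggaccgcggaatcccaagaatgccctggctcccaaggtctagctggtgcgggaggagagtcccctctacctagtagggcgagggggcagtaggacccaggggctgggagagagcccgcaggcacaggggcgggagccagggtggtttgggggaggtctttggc

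In the window of 250 bases before to 50 after the start, P4ha1 held 1 ACGTG and 2 GCGTG, P4ha2 held 2 of each, and Serpinh1 held 1 ACGTG and 0 GCGTG. Plod3 had 1 ACGTG and 3 GCGTG, and Plod1 had 0 and 2. These short letters are common: 19.6% of all 32851 promoters held ACGTG and 32.4% held GCGTG on 1 strand or the other. The full cAMP response element TGACGTCA, found in 1.79% of promoters, and the FXR inverted repeat AGGTCANTGACCT, found in 3 promoters, had no match in the 5 windows. GAANNTTC, the letters of part of a heat shock element chosen after the values were seen, was in the window of Plod1 alone, and in 7.86% of promoters. A match is not a bound site, and the windows do not cover distal elements. For P4ha1, RefSeq places the start of the gene at 59323197, upstream of the counted start at 59323296. The last printed bases of P4ha1, with the marked CACGT, therefore lie inside the annotated gene.

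The lysyl hydroxylases gave no difference that passed the test. Plod1, which hydroxylates lysines in the helix (chromosome 4, 147909753 to 147936776), had 119, 133 and 112 CPM in OCA+VIP and 94.8, 125 and 102 CPM in DMSO+VIP. The groups overlapped, and the log2 fold change of 0.16 had an SE of 0.14 (edgeR adjusted p = 0.51). Plod2, the enzyme of the telopeptide lysines that gives the most stable crosslinks (chromosome 9, 92542223 to 92608427), had 159, 155 and 152 CPM in OCA+VIP and 145, 111 and 171 CPM in DMSO+VIP. The OCA+VIP values lay inside the DMSO+VIP range, and the log2 fold change of 0.11 had an SE of 0.14 (edgeR adjusted p = 0.68). Plod3, which also transfers sugars to hydroxylysine (chromosome 5, 136987019 to 136996646), had 123, 147 and 113 CPM in OCA+VIP and 122, 136 and 135 CPM in DMSO+VIP, which overlapped, and a log2 fold change of -0.052 with an SE of 0.13 (edgeR adjusted p = 0.85). Of its exon bases, 11.71% are shared with Znhit1, a gene of the opposite strand, and whether strand was used in counting is not stated.

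A p that misses the threshold does not show that these enzymes were unaffected. The 95% intervals of the fold ran from 0.916 to 1.37 for Plod1, from 0.882 to 1.32 for Plod2 and from 0.799 to 1.16 for Plod3, so differences beyond those bounds lay outside the intervals. Each gene held about the same part of the family's summed level per kb: Plod2 held 32.7% to 37.3% in OCA+VIP and 27.2% to 38.8% in DMSO+VIP, and Plod3 held 31.4% to 35.2% in OCA+VIP and 34.6% to 37.7% in DMSO+VIP. The family total was 119 ± 9.19 CPM per kb in OCA+VIP and 112 ± 6.72 in DMSO+VIP.

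**Figure D2:**
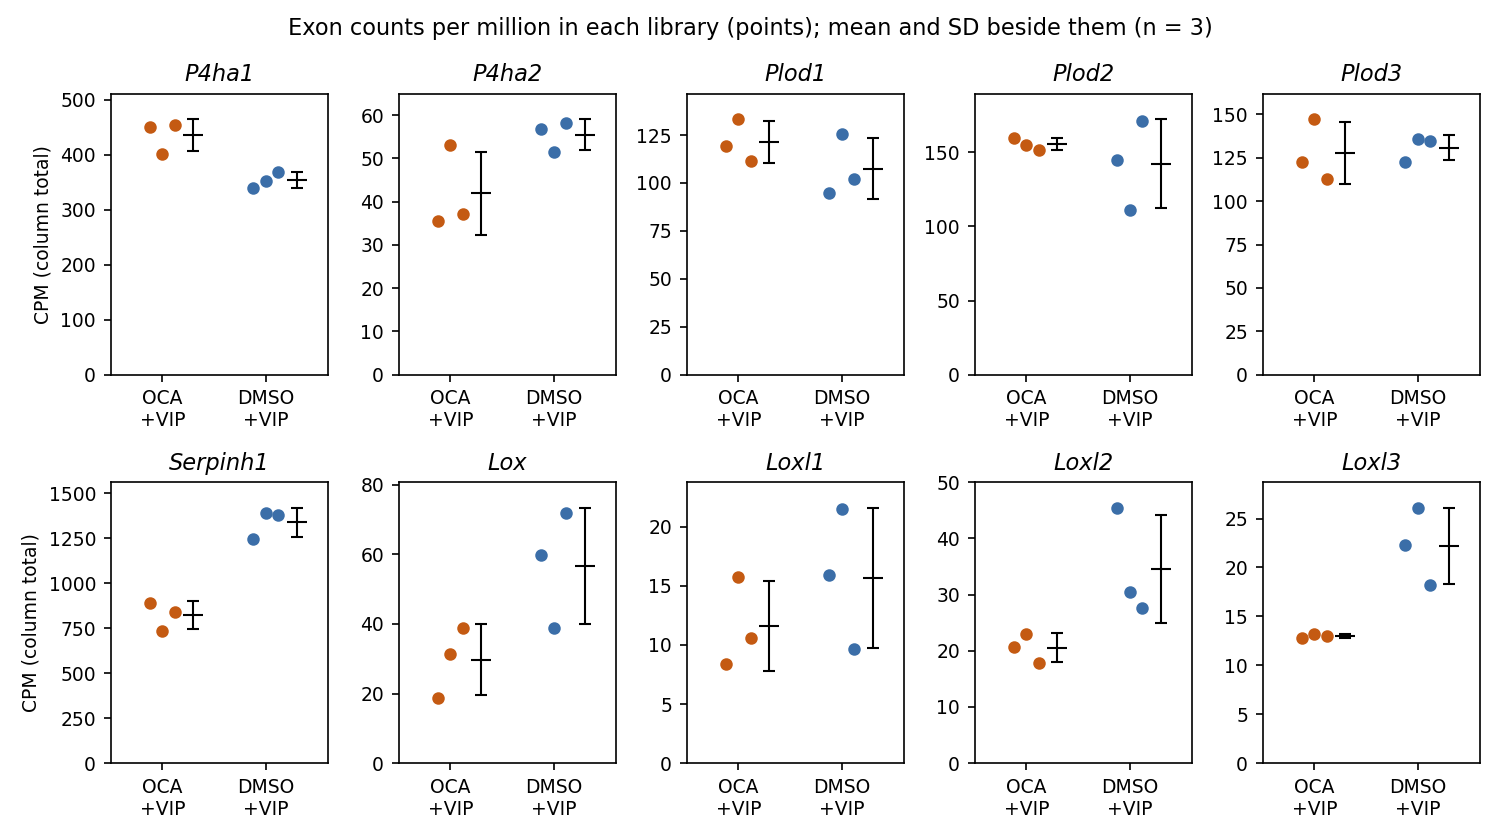
CPM of each gene in the 3 OCA+VIP and 3 DMSO+VIP libraries (points), with the mean and SD beside them; each panel has its own axis from 0. Serpinh1, Loxl2 and Loxl3 lie lower and P4ha1 higher in every OCA+VIP library than in any DMSO+VIP library, while Lox overlaps by 1 library pair (38.9 CPM in OCA+VIP and 38.7 CPM in DMSO+VIP).

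Serpinh1 (chromosome 7, 99345375 to 99353239), the collagen-specific chaperone of the endoplasmic reticulum, had 892, 736 and 843 CPM in OCA+VIP, against 1244, 1390 and 1383 CPM in DMSO+VIP. The groups were far apart: the highest OCA+VIP library was below the lowest DMSO+VIP library. The log2 fold change was -0.71 (SE 0.14, 95% interval -0.99 to -0.43, edgeR adjusted p = 0.00117), and the gene stayed past the threshold of 0.05 without any 1 library, with log2 fold changes of -0.81 to -0.60 and edgeR adjusted p of at most 0.015. Serpinh1 was the most abundant of the 10, and their sum was separate between groups with it and overlapped without it. Summed CPM of the 10 genes was 1841, 1710 and 1790 in OCA+VIP and 2146, 2282 and 2345 in DMSO+VIP, whereas the sum of the other 9 was 949, 974 and 947 in OCA+VIP and 902, 892 and 963 in DMSO+VIP. Serpinh1 held 46.2 ± 2.81% of the summed CPM in OCA+VIP and 59.3 ± 1.51% in DMSO+VIP (SD, n = 3).

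RNA of the prolyl hydroxylase subunits P4ha1 and P4hb stood in a different proportion to chaperone RNA in the groups. Their proteins act on the same chains. P4ha2, which overlapped between groups and had a log2 fold change of -0.42, was not set against Serpinh1. The ratio of P4ha1 to Serpinh1 per kb was 0.301, 0.324 and 0.320 in OCA+VIP, against 0.163, 0.150 and 0.159 in DMSO+VIP. That of P4hb to Serpinh1 was 0.717, 0.734 and 0.701 in OCA+VIP, against 0.404, 0.369 and 0.366 in DMSO+VIP. Neither ratio overlapped between groups. They could not have, since Serpinh1 alone was lower, and P4ha1 and P4hb alone were higher, without overlap. The ratios therefore add no separate result. They were formed after the values of Serpinh1 and P4ha1 were known and carry no test.

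Lox (chromosome 18, 52516060 to 52529823), the founding lysyl oxidase, acts on collagen and elastin. It had 18.9, 31.4 and 38.9 CPM in OCA+VIP, against 59.7, 38.7 and 71.8 CPM in DMSO+VIP. OCA+VIP library 3 and DMSO+VIP library 2 were nearly equal, and all other pairs lay apart. The log2 fold change was -0.95 (SE 0.24, 95% interval -1.46 to -0.44, edgeR adjusted p = 0.012). Lox no longer passed without OCA+VIP library 1 (edgeR adjusted p = 0.084), DMSO+VIP library 1 (0.062) or DMSO+VIP library 3 (0.098), with log2 fold changes of -1.19 to -0.75 over the 6 fits that leave out 1 library. The counts behind it were 85.5 to 312.5 in OCA+VIP and 110 to 273 in DMSO+VIP.

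Loxl2 (chromosome 14, 69609476 to 69695834), which crosslinks basement membrane collagen among other substrates, had 20.7, 23.0 and 17.8 CPM in OCA+VIP, against 45.5, 30.5 and 27.6 CPM in DMSO+VIP. All OCA+VIP values were lower than all DMSO+VIP values. Its log2 fold change of -0.77 (SE 0.25) just missed the threshold (edgeR adjusted p = 0.0506). Its adjusted p was under 0.05 in 7 of 17 alternatives, among them RLE scaling (0.049), limma-voom (0.039) and DESeq2 (adjusted p = 0.012), and its edgeR adjusted p was 0.041 to 0.27 when 1 library was left out. Loxl3 (chromosome 6, 83034224 to 83052564), needed for cartilage and palate matrix in mice, had 12.8, 13.2 and 13.0 CPM in OCA+VIP, against 22.3, 26.1 and 18.2 CPM in DMSO+VIP. The OCA+VIP libraries were nearly identical and all lay below the DMSO+VIP libraries, but the difference did not pass (log2 fold change -0.78, SE 0.30, edgeR adjusted p = 0.10; DESeq2 adjusted p = 0.031). Its exons share 11.62% of their bases with Htra2 on the opposite strand.

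Loxl1 (chromosome 9, 58287723 to 58313212), which maintains elastic fibres, had 8.38, 15.8 and 10.6 CPM in OCA+VIP and 16.0, 21.5 and 9.64 CPM in DMSO+VIP. The groups overlapped, with a log2 fold change of -0.44, an SE of 0.38 (edgeR adjusted p = 0.51) and a fold between 0.424 and 1.28 in the 95% interval. Counts of 38 to 157 in OCA+VIP and 36 to 73 in DMSO+VIP limit what could be seen. The 4 lysyl oxidase members summed to 60.8, 83.4 and 80.4 CPM in OCA+VIP, against 143, 117 and 127 CPM in DMSO+VIP, and the groups did not overlap.

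The fifth family gene, Loxl4, which is not among the 10, had 25.6, 42.8 and 43.8 CPM in OCA+VIP and 53.6, 47.4 and 56.9 CPM in DMSO+VIP, without overlap (log2 fold change -0.51 with an SE of 0.21, edgeR adjusted p = 0.12). All 5 log2 fold changes of the family were thus below 0, with 1 past the threshold. The family total, Loxl4 included, was 18.3, 26.8 and 25.9 CPM per kb in OCA+VIP and 41.2, 35.5 and 37.9 CPM per kb in DMSO+VIP. The make-up of the family overlapped between groups for every gene: Lox held 25.3 ± 4.94% of the level per kb in OCA+VIP and 30.2 ± 8.20% in DMSO+VIP, and Loxl4 held 28.8 ± 2.75% in OCA+VIP and 25.4 ± 1.98% in DMSO+VIP.

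**Figure D3:**
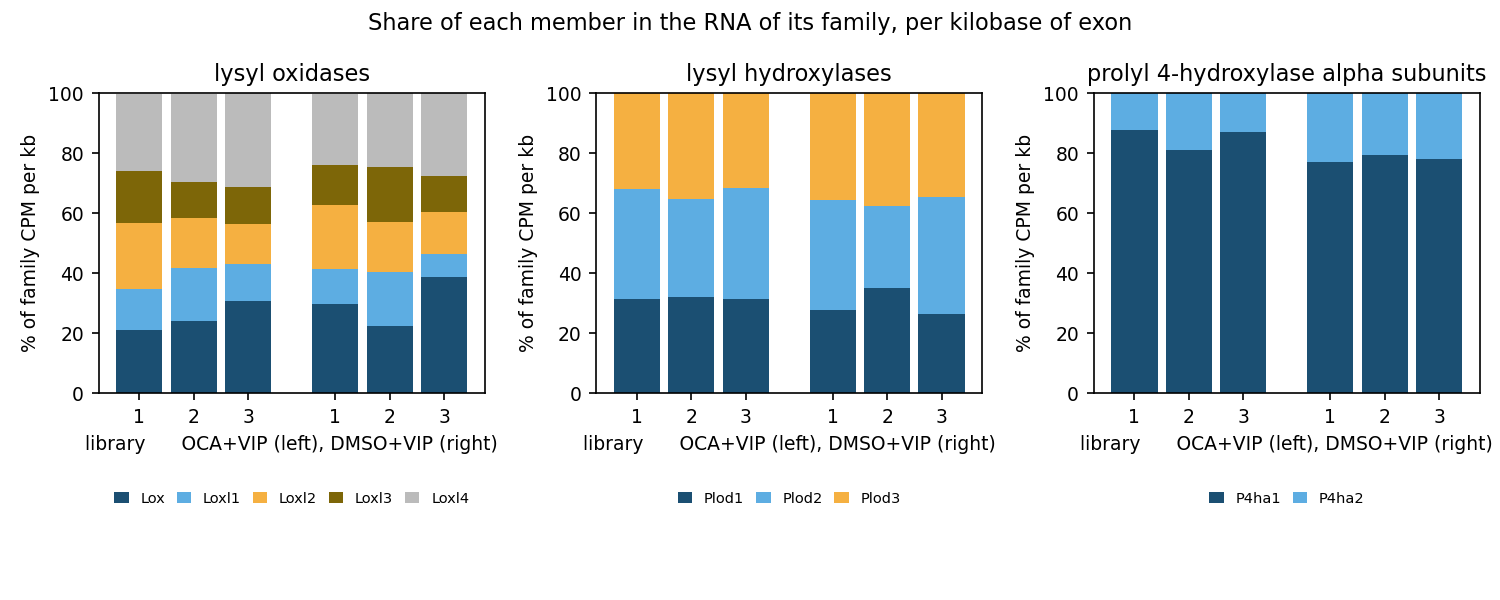
Share of each gene in the summed level per kilobase of its family, as stacked bars for OCA+VIP libraries 1 to 3 (left) and DMSO+VIP libraries 1 to 3 (right). P4ha1 holds 81.0% to 87.7% in OCA+VIP and 77.1% to 79.3% in DMSO+VIP, while the shares of the lysyl oxidases and lysyl hydroxylases overlap between groups.

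Other enzymes and chaperones of collagen modification gave 2 that fell and 0 that rose among 16 tested, of 18 on the list, where the list's median was -0.12 on the log2 scale. Fkbp10, a prolyl isomerase of procollagen that supports telopeptide lysyl hydroxylation, had 57.1, 67.8 and 56.7 CPM in OCA+VIP, against 104, 99.0 and 87.7 CPM in DMSO+VIP. It was 1.62-fold lower (-0.70 on the log2 scale with an SE of 0.15, edgeR adjusted p = 0.0032) and stayed past the threshold of 0.05 without any 1 library (at most 0.028). Fkbp9, a related isomerase, had 186, 177 and 160 CPM in OCA+VIP, against 241, 238 and 230 CPM in DMSO+VIP (log2 fold change -0.45, edgeR adjusted p = 0.015). The call of Fkbp9 was lost without OCA+VIP library 3, DMSO+VIP library 1 or DMSO+VIP library 2 (0.11, 0.056 and 0.0515). Neither gene overlapped between groups.

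Kdelr2, a receptor that returns escaped proteins including HSP47 to the endoplasmic reticulum, had 195, 181 and 169 CPM in OCA+VIP, against 145, 132 and 138 CPM in DMSO+VIP. The groups did not overlap, and its log2 fold change of 0.38 (SE 0.12) was just short of the threshold (edgeR adjusted p = 0.053). By DESeq2 its adjusted p was 0.010, and with 1 library left out its edgeR adjusted p was 0.034 to 0.22. P3h3, which works with P3h4 and Plod1 on helical lysines in mice, had -0.78 on the log2 scale (SE 0.29, edgeR adjusted p = 0.085). For P3h3, the DESeq2 adjusted p was 0.035, and the edgeR adjusted p was 0.029 to 0.30 when 1 library was left out. P3h4 itself had 0.28 with an SE of 0.37. The cyclophilin Ppib had -0.32 (edgeR adjusted p = 0.12), though its exons share 24.96% of their bases with Snx22 on the opposite strand. The log2 fold changes of its partners in the prolyl 3-hydroxylase complex were -0.21 for the enzyme P3h1 and 0.075 for Crtap, and that of the collagen galactosyltransferase Colgalt1 was -0.083. Fkbp7, Fkbp14, P3h2, Tmem38b and Kdelr3 had values of 0.045, -0.57, -0.15, 0.35 and -0.080, with edgeR adjusted p of 0.379 or more. Of the exon bases of P3h2, 28.35% are shared with Gm4524, and of those of Colgalt1, 11.44% with Unc13a, both on the opposite strand. P4ha3 and Colgalt2 were too low to test.

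**Figure D4:**
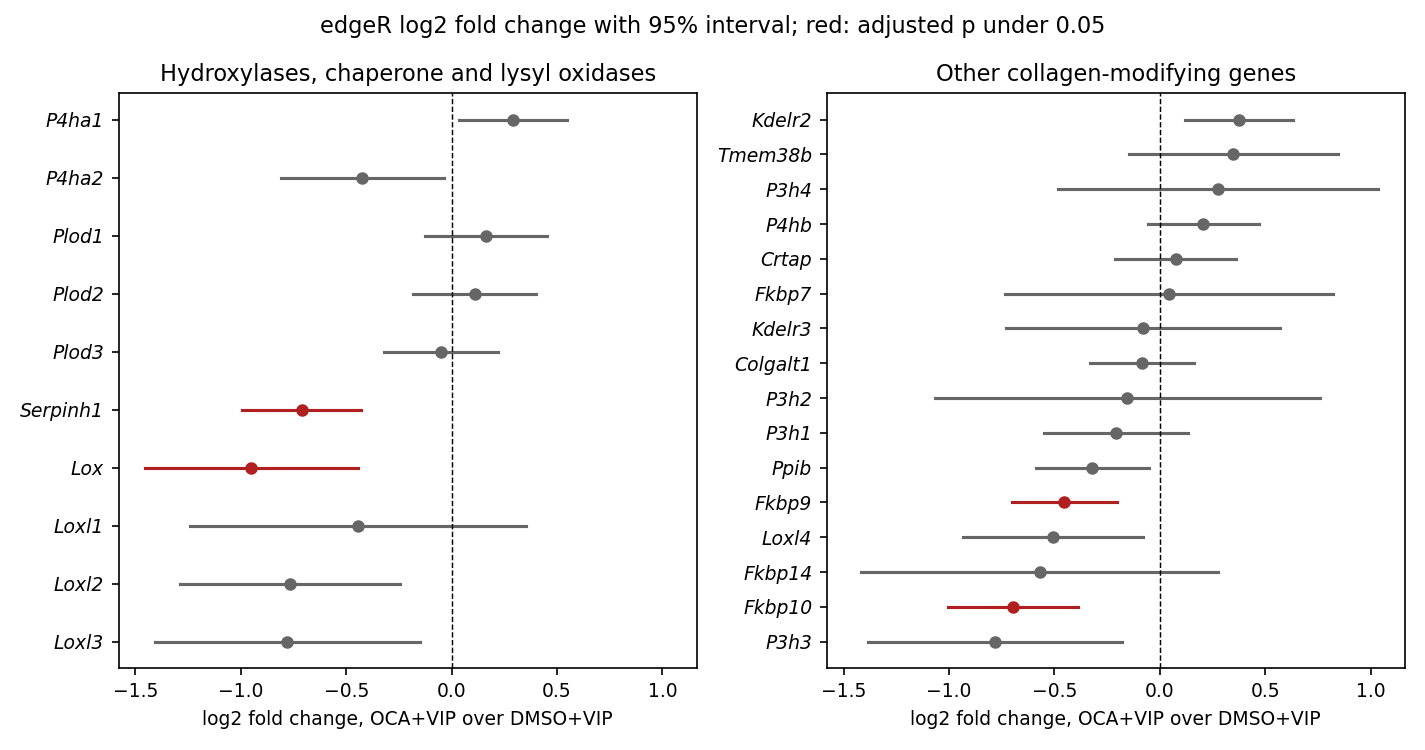
The log2 fold change (OCA+VIP over DMSO+VIP) with its 95% interval for the 10 genes (left) and 16 other collagen-modifying genes (right); red marks an edgeR adjusted p under 0.05. Serpinh1, Lox, Fkbp10 and Fkbp9 are red and below 0, and the lysyl hydroxylases lie near 0.

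Of 14 tested genes that carry procollagen out of the cell and trim its ends, 1 rose and 0 fell, and the median over them was -0.036 on the log2 scale. Klhl12, a ubiquitin ligase adaptor that enlarges transport vesicles for procollagen, rose (log2 fold change 0.68, SE 0.20, edgeR adjusted p = 0.033), but not without OCA+VIP library 1 or 3 or DMSO+VIP library 1 or 2 (0.057 to 0.19). The procollagen N-propeptidases Adamts2 and Adamts14 had log2 fold changes of -0.51 and -1.28 (edgeR adjusted p = 0.079 and 0.14). Bmp1, the protease that also trims the LOX precursor and was named after its values were seen, had 46.5, 71.4 and 51.8 CPM in OCA+VIP and 73.7, 69.6 and 53.2 CPM in DMSO+VIP (log2 fold change -0.23, edgeR adjusted p = 0.46).

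Of 10 tested genes for cofactor supply and partners of the lysyl oxidases, 4 fell and 2 rose, and their median was -0.32 on the log2 scale. Those that fell include extracellular partners: periostin (Postn), which helps BMP1 activate LOX, had 69.4, 78.1 and 87.5 CPM in OCA+VIP, against 223, 225 and 231 CPM in DMSO+VIP (log2 fold change -1.55, edgeR adjusted p = 6.3e-08). Fibronectin (Fn1) and fibrillin (Fbn1) had log2 fold changes of -1.13 and -1.29, and a model gene on the opposite strand, Gm9913, shares 20.14% of the exon bases of Fbn1. The ones that rose were copper transporters, named after their values were seen. Atp7a, the pump that loads copper into secreted enzymes such as LOX, had 75.0, 99.6 and 85.4 CPM in OCA+VIP, against 64.2, 49.0 and 42.7 CPM in DMSO+VIP (log2 fold change 0.71, SE 0.17, edgeR adjusted p = 0.0078; 0.052 without DMSO+VIP library 3). The copper importer gene Slc31a1 had 157, 160 and 157 CPM in OCA+VIP, against 121, 101 and 129 CPM in DMSO+VIP (log2 fold change 0.42, edgeR adjusted p = 0.037).

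The call of Slc31a1 was lost without OCA+VIP library 1 or 3 or DMSO+VIP library 1 or 2 (edgeR adjusted p = 0.085 to 0.15). The vitamin C transporter gene Slc23a2, also named after its values were seen, supplies ascorbate, which the hydroxylases need. It had 94.7, 111 and 76.7 CPM in OCA+VIP, against 169, 117 and 112 CPM in DMSO+VIP (log2 fold change -0.51, edgeR adjusted p = 0.038). Its call was lost without OCA+VIP library 1 or 3 or DMSO+VIP library 1 (0.088, 0.22 and 0.27).

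Of 10 tested substrate genes, Col1a1, Col5a2, Col4a1 and Col4a2 fell and 0 rose, and their median was -0.48 on the log2 scale. Col3a1, the chain of type III collagen, had the 1 positive value of the list: 7.06, 10.4 and 14.6 CPM in OCA+VIP, against 5.79, 2.29 and 3.21 CPM in DMSO+VIP. The groups did not overlap, and its log2 fold change of 1.49 had an SE of 0.56 and did not pass (edgeR adjusted p = 0.089; DESeq2 adjusted p = 0.0245), on counts of 6.5 to 26.5 in DMSO+VIP. Elastin (Eln) was at most 1.74 CPM in any library. The type IV chain genes, the most abundant of the list in CPM, had log2 fold changes of -0.86 (Col4a1, named after its values were seen) and -0.92 (Col4a2), while Col5a2 and Col1a1 had -1.92 and -1.79. The ratio of Serpinh1 to Col1a1 per kb was 142, 84.0 and 136 in OCA+VIP, against 38.8, 71.3 and 65.8 in DMSO+VIP. Set against other chains, the result differed: the ratio of Serpinh1 to Col4a1 was 2.30, 1.67 and 2.07 in OCA+VIP and 1.66, 1.81 and 1.996 in DMSO+VIP, which overlapped, and that to Col3a1 was 291, 163 and 133 in OCA+VIP, lower than 495, 1398 and 990.5 in DMSO+VIP. For Serpinh1, a higher ratio in OCA+VIP without overlap therefore held for Col1a1 and not for Col4a1 or Col3a1. Col1a1 is 1 of the chains with the largest negative fold changes. The ratios of the other genes were taken to Col1a1 alone, and they do not speak for collagen RNA in general. P4ha1 over Col1a1 was 42.7, 27.3 and 43.5 in OCA+VIP, against 6.30, 10.7 and 10.5 in DMSO+VIP, and Loxl2 over Col1a1 was 1.53, 1.22 and 1.33 in OCA+VIP, against 0.657, 0.724 and 0.609 in DMSO+VIP. For Lox the ratio was 1.47, 1.76 and 3.07 in OCA+VIP and 0.911, 0.972 and 1.67 in DMSO+VIP, and the groups overlapped. P4ha1 over Col1a1 and Serpinh1 over Col3a1 had to separate, since each of these genes did so alone, in opposite directions within each pair. These ratios were not tested.

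P4ha1, P4ha2, Plod1, Plod2, Lox and Loxl2 are known targets of HIF-1. Of 15 other hypoxia-induced genes tested, of 18 on the list, 2 rose and 1 fell, and their median was 0.038 on the log2 scale. The vasodilator peptide gene Adm (adrenomedullin) rose, with 253, 197 and 229 CPM in OCA+VIP, against 94.6, 86.6 and 90.0 CPM in DMSO+VIP (log2 fold change 1.31, SE 0.14, edgeR adjusted p = 1.5e-06). The histone demethylase gene Kdm3a rose (0.42, edgeR adjusted p = 0.037), and the oxygen sensor gene Egln1 fell (-0.61, edgeR adjusted p = 0.012). Both of these calls were lost when single libraries were left out: Egln1 without OCA+VIP library 1 or 3 or DMSO+VIP library 1 (0.052 to 0.084), and Kdm3a without OCA+VIP library 1 or 3 or DMSO+VIP library 1 or 3 (0.080 to 0.20). Kdm3a also lost its call by upper-quartile scaling and with the column number as replicate block (edgeR adjusted p = 0.058 for both). Pdk1 and Car9 had 0 counts in all libraries.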

How the data were processed

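Exon counts of 6 mouse libraries were analysed, 3 per group. The authors deposited expected counts per gene, 1 RefSeq transcript each, not adjusted for library size per the file name and in steps of 0.5. The submitters' processing notes name mm10, STAR, HOMER and DESeq2 without role, order or version. Strand use and duplicate removal are not given in the sources used here. Columns were assigned to groups by name, and the sample titles carry letters that could not be tied to the column numbers. The other deposited columns, exon length and copy number (unit other), were used as given, and gene coordinates are those of the table.

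Counts were rounded and compared between the groups in edgeR 4.0.16 (R 4.3.3, limma 3.58.1) by its two-sided quasi-likelihood test after TMM scaling. The filterByExpr filter (count of 10, total of 15) kept 11286 genes, over which p was adjusted by Benjamini-Hochberg, with a threshold of 0.05. The common biological coefficient of variation was 0.198, with 4 residual degrees of freedom. Tests and intervals used the total degrees of freedom, which borrow from other genes (median 21.7). The steps were tested on simulated data, with the same dispersion for every gene and without the pattern of low counts. The changed genes were drawn only from genes with expected counts well above the filter, so recovery of genes near the filter was not measured. Of 100 genes changed 2-fold, 79 were recovered, and of 100 changed 4-fold, 100 were. Among 11292 genes tested, 11 unchanged genes were called. Some 2-fold differences were thus missed. CPM are scaled to the column total, errors are SD over 3 libraries, and intervals of fold changes are 95% intervals from the fit. Promoters are from RefSeq (GRCm38.p6) and exon overlaps from GENCODE. Python 3.11.15, pandas 2.3.3 and matplotlib 3.10.9 made tables and figures.

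The 10 genes and the lists were chosen with earlier results of these data known. Named are the 10 genes, all tested genes of the list of other modifying enzymes, and from each other list the 3 tested genes of lowest p whose mean reached 1 CPM. All other genes named, cell type markers and genes too low to test among them, were chosen after their values were seen. Alternatives were scaling by RLE, by upper quartile or by library size alone; leaving genes unfiltered or requiring 1 CPM in 3 libraries; DESeq2 1.42.0; limma-voom; the column number as replicate block; counts divided by 6; a threshold of 0.01 or 0.1; and omitting each library in turn.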

Additional observations from a re-analysis of the deposited data

How the results depend on the processing

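Over the 17 alternatives, the log2 fold changes of the 10 genes kept their direction and their side of the threshold in 154 of 170 values. Those of Serpinh1 ran from -0.81 to -0.60, always past the threshold. DESeq2 called 1111 genes higher and 1090 lower, 4 of the 10 among the lower (Lox, Loxl2, Loxl3 and Serpinh1), and a threshold of 0.01 left 303 higher and 345 lower, 1 of the 10 among them. Without 1 library, 310 to 745 genes were higher and 395 to 733 lower; of the 10, 0 or 1 was higher and 1 or 2 were lower. Without DMSO+VIP library 3, Lox was lost and Loxl2 gained. The gene that became higher, without OCA+VIP library 2, was P4ha1. Among the named genes, directions turned for 6, none of which had passed the test: leaving out 1 library gave log2 fold changes of -0.13 to 0.027 for Plod3, -0.029 to 0.26 for Plod2, -0.16 to 0.19 for Fkbp7 (-0.023 by limma-voom), -0.017 to 0.13 for Crtap, -0.013 to 0.54 for P3h4 and -0.45 to 0.037 for P3h2. The cause was not tested. Counts for the related gene lists stayed within 1.5 times in 126 values, were higher in 16 and lower in 28. These counts were at most 4 in the main fit, and a 0 that stayed 0 is among the 126. That number therefore says little about stability. No scaling moved the median of all genes by over 0.1. With the column number as a replicate block, 549 genes were higher and 569 lower, and of the 10, 0 and 2. Same-numbered libraries deviated from their group means with correlations of -0.035, -0.050 and 0.030. With 3 libraries per group, these values cannot tell whether same-numbered libraries were paired. Depth limits the genes with low counts, such as Loxl1, Loxl2 and Loxl3 with 36 to 228.5 per library.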
